A study of Mus musculus with 163 samples.

Results

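The genes described here encode the subunits of the proteasome and the factors that assemble or activate it, measured in single mouse oocytes. They were taken as every gene of the deposited count table whose mouse symbol begins with Psma, Psmb, Psmc, Psmd, Psme or Psmg followed by a digit, with pseudogene names left out, and 44 of 21950 genes met this rule. Psma4, Psmb1, Psmc2, Psmc5 and Psme1 were not analysed here. One of the 44, Psmc3ip, shares only the name: it encodes a factor of meiotic recombination.

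The proteasome degrades proteins that carry ubiquitin chains. Its core is a barrel of alpha rings (Psma) and beta rings (Psmb), and the proteolytic sites lie in Psmb5, Psmb6 and Psmb7. A cap of ATPases (Psmc) and non-ATPase subunits (Psmd) binds the ubiquitinated protein, unfolds it and feeds it into the barrel. Other activators (Psme) can take the place of the cap, and chaperones (Psmg for the core, and Psmd5, Psmd9 and Psmd10 for the cap) help to assemble the particle. Oocytes store transcripts and proteins during growth and transcribe little once fully grown, and the meiotic divisions and early embryo that follow depend on protein degradation.

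Growing oocytes (GROs) and fully grown oocytes (FGOs) were sequenced one by one. The iPSC-derived GROs (23) and FGOs (24) came from BVSC-iPSC, a single female induced pluripotent stem cell line with Blimp1-Venus and Stella-ECFP reporters, whose germ cells were aggregated with gonadal somatic cells of outbred Swiss Webster embryos into reconstituted ovaries. The somatic cells had been depleted of their own germ cells, and some germ cells of the embryos may have remained. The gonad-derived GROs (24) and FGOs (24) entered a similar culture from E12.5 embryonic gonads, of which all cells were aggregated without depletion, the 6 dpp FGOs (24) were grown in culture from follicles taken 6 days after birth, and the in vivo GROs (24) and FGOs (20) developed in the mouse. Per the methods of the study, growth culture was shorter for the gonad-derived and 6 dpp follicles than for those from stem cells. The iPSC-derived against the gonad-derived oocytes address in vitro differentiation of germ cells (IVP), gonad-derived against in vivo GROs or against 6 dpp FGOs in vitro oocyte differentiation (IVD), and 6 dpp against in vivo FGOs in vitro growth (IVG). The study reports that iPSC- and gonad-derived GROs were larger than in vivo GROs, and its authors selected samples by oocyte size. Size was not used here, so size and culture are not separated in the comparisons with in vivo GROs. The labels name no animal or culture behind an oocyte, so a group counts as 1 sample and no test between groups was possible. Pooled levels are the summed reads of a gene per 1000000 summed reads of the group (CPM), with exact 95% Poisson intervals that cover counting error only. Ratios are log2 of pooled CPM plus 0.5, and a gene was called at 2-fold.

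Total counts per oocyte were 2.17 to 13.7 M (M, 1000000 counts) with a median of 6.93 M, so 3 reads in the pool of a group correspond to 0.0181 to 0.0207 CPM. The 12 oocyte markers, among them the germline factor Figla at 44.3 CPM or more, were measured in all 7 groups, and their summed pooled level fell between 22563 CPM in iPSC-derived FGOs and 52848 CPM in in vivo GROs. The 12 measured granulosa cell markers summed to 52.3 to 199 CPM, and the highest single oocyte, 6 dpp FGO 12, had 1630 CPM. Some oocytes stood apart from their group. In vivo GROs 17 to 24 had levels outside the range of in vivo GROs 1 to 16 at 838 of 12447 genes, with 678 higher and 160 lower, at a similar depth (medians of 6.82 and 6.87 M). Gonad-derived FGO 19 had the lowest level of its group for 27 of the 44 proteasome genes and the highest for 8, with 6.96 M counts, and of the 12368 genes measured in that group it was lowest for 32.0% and highest for 19.6%. In vivo FGO 7 lay outside the range of the other in vivo FGOs for 10 of the 44 and for 29.6% of all genes measured there. The labels do not say what set these oocytes apart, and the main counts and medians of the comparisons they enter are also given without them where they differ.

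The 250 bases before the start site of 3 members picked by their levels are shown, in lower case. Psmd13 and Psmb5 had lower levels in FGOs than in GROs, and Psma7 had the highest level of all members. Psmg2, also lower in FGOs, is not shown, and a link between these sequences and the levels was not tested. The sequences are from RefSeq (GRCm38.p6), read 5′ to 3′ on the strand of the gene. Capitals mark a CCAAT box, the motif of NF-Y, or TGACNNNGC, the core of the antioxidant response element that Nfe2l1 and Nfe2l2 bind.
Psmd13, chr7:140882144-140882393, plus strand: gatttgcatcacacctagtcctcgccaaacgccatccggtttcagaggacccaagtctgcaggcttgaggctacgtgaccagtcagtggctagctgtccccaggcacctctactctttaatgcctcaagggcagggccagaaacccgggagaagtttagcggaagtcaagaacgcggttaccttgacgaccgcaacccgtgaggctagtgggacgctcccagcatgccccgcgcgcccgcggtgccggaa
Psmb5, chr14:54617996-54618245, minus strand: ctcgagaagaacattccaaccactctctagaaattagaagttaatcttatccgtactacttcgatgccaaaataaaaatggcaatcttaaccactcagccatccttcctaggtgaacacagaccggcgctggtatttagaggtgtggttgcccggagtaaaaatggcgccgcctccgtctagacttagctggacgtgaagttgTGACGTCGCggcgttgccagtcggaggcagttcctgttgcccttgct
Psma7, chr2:180042465-180042714, minus strand: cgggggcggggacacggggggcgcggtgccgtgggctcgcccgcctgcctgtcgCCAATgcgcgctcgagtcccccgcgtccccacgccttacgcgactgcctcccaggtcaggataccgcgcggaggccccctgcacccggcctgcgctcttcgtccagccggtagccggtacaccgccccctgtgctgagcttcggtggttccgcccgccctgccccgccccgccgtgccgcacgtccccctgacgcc
Psmd13 held neither motif in these 250 bases, Psmb5 held 1 match to the antioxidant response element core, and Psma7 held 1 CCAAT box. The windows searched for all genes ran from 250 bases before to 50 after the start, on both strands, and 39 such windows were matched to 37 of the 44 members. CCAAT was in 35.9% of the members' windows and in 37.4% of all 32851 windows. TGACNNNGC was in 15.4% against 12.4%, in Psmb5, Psmb6, Psmc6, Psmd9, Psmd12 and Psme4. GAAANNGAA, the core of the interferon-stimulated response element, was in 12.8% against 8.56%, and not in the windows of the interferon-inducible Psmb8 and Psmb9. These matches describe letters only.

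Most core and cap subunits were abundant in all groups, and levels between genes are given per kilobase of the length the authors counted (RPKM). Among 27 subunits of the core and cap, the pooled median ran from 84.6 RPKM in in vivo FGOs to 119 RPKM in iPSC-derived FGOs. Psma7, an alpha ring subunit, was highest in every group, at 690 to 1074 RPKM. In in vivo FGOs the alpha ring ran from 8.14 RPKM (Psma3) to 795 RPKM (Psma7), apart from Psma8 at 0.103 RPKM. The beta ring ran from 11.9 RPKM (Psmb3) to 367 RPKM (Psmb2). The measured ATPases spanned the smallest range of the cap, from 70.2 RPKM (Psmc3) to 163 RPKM (Psmc4). The non-ATPase cap subunits ran from 6.26 RPKM (Psmd13) to 286 RPKM (Psmd4, a ubiquitin receptor). The cap chaperones lay between 76.1 RPKM (Psmd9) and 141 RPKM (Psmd5), and the core chaperones between 3.69 RPKM (Psmg2) and 94.0 RPKM (Psmg4). The other activators were lower, from 2.98 RPKM (Psme2) to 36.2 RPKM (Psme3). The subunits of a ring are present in equal number in the particle, while their transcripts differed by up to 30.8-fold within the beta ring of in vivo FGOs. The authors counted 1 randomly chosen transcript per gene, and the counted length matched no annotated transcript of any member, so levels between genes are less certain than ratios within a gene. Psme4, for example, was counted over 1874 bases, while its longest coding transcript has 6491. Psmb3, the lowest of the beta ring, was counted over 1629 bases, while its longest coding transcript has 766. Ratios within a gene also describe only the counted exons.

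**Figure D1:**
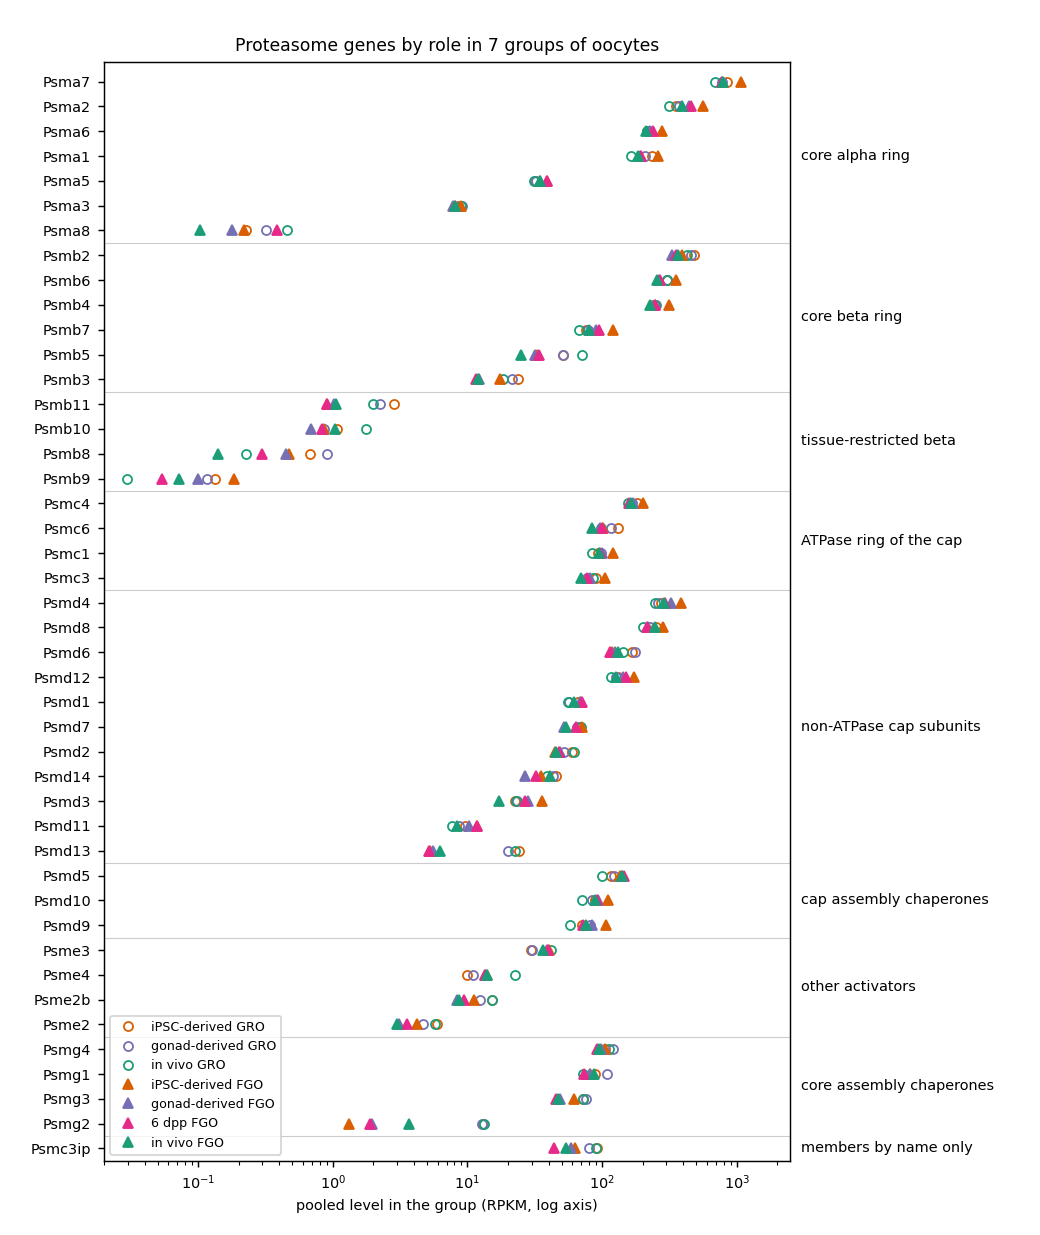
Pooled level of each of the 44 genes in the 7 groups, in RPKM on a log axis, ordered by role, with circles for GROs and triangles for FGOs. Core and cap subunits lie mostly above 10 RPKM in all groups, and Psma8 and the tissue-restricted beta subunits at 2.83 RPKM or less.

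In pooled levels, the subunits that replace others in specialised proteasomes made up at most 5.22% of the sum with the subunit they replace. In single oocytes the share reached 8.09% (Psmb8 in gonad-derived FGO 19) and 7.40% (Psmb11 in iPSC-derived GROs). In gonad-derived FGO 19, Psmb8 was at 0.431 CPM and Psmb5 at 2.44 CPM, while the other gonad-derived FGOs had 13.4 CPM or more of Psmb5. The median share of Psmb8 over the gonad-derived FGOs was 1.45%. The levels and shares below are pooled by group. Psmb8, Psmb9 and Psmb10 are the interferon-inducible catalytic subunits that replace Psmb5, Psmb6 and Psmb7 in the immunoproteasome. Psmb8 had 0.207 to 1.33 CPM over the groups, Psmb9 0.0309 to 0.193 CPM, and Psmb10 1.10 to 2.79 CPM. Per length, Psmb8 made up 0.321 to 1.74% of the sum of Psmb8 and Psmb5, Psmb9 at most 0.0525% of the sum with Psmb6, and Psmb10 0.704 to 2.55% of the sum with Psmb7. Psma8, the alpha subunit that replaces Psma7 in spermatogenic cells, made up 0.0129 to 0.0666% of their sum. Psmb11, which replaces Psmb5 in the thymus, made up 2.61 to 5.22% of the sum with Psmb5. Psmb11 lies on chromosome 14 at 54625310 to 54629556, and Psmb5 at 54614120 to 54617995 on the other strand, with no exon shared. Psmb8 and Psmb9 overlap exons of a gene on the opposite strand, and whether the counting used strand is not given in the sources used here. Of the 9 measured interferon-induced genes, Ifit3 and Isg15 had no read or a pooled level of at most 0.0246 CPM in each group, while Irf1 had 369 to 502 CPM.

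The first question was how these transcripts changed during oocyte growth, from GRO to FGO. In vivo, none of the 42 members that passed a minimum of 1 CPM in 3 oocytes was at least 2-fold higher in FGOs, where 10.4% of the 13148 genes were, and 4 were at least 2-fold lower, where 13.2% of all genes were. In the iPSC-derived oocytes it was 0 higher (all genes, 6.69%) and 3 lower (15.3%) of 43, and in the gonad-derived oocytes 0 higher (5.82%) and 3 lower (9.98%) of 43. The median ratio of the members was -0.16 in vivo (all genes, -0.11), 0.09 in iPSC-derived (-0.11) and -0.11 in gonad-derived oocytes (-0.05). Of the members that passed, 30 in vivo, 35 iPSC-derived and 35 gonad-derived stayed within 1.5-fold, or 71.4%, 81.4% and 81.4%, against 54.7%, 57.2% and 64.3% of all genes. Without in vivo GROs 17 to 24, 0 members were higher (10.9% of all genes) and 3 lower (11.5%), since Psma8 passed out of the call. The in vivo median was then -0.06 (all genes, -0.05), and 33 members, or 78.6%, stayed within 1.5-fold (all genes, 56.7%). Without gonad-derived FGO 19 the gonad-derived counts were the same and the median was -0.12. Of the granulosa markers that passed, 6 of 11 were at least 2-fold higher in FGOs in vivo (all genes, 10.4%). It was 3 of 9 in iPSC-derived (6.69%) and 3 of 10 in gonad-derived oocytes (5.82%), with 0 lower in each. The part of granulosa cells in the ratios of the members was not tested.

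**Figure D2:**
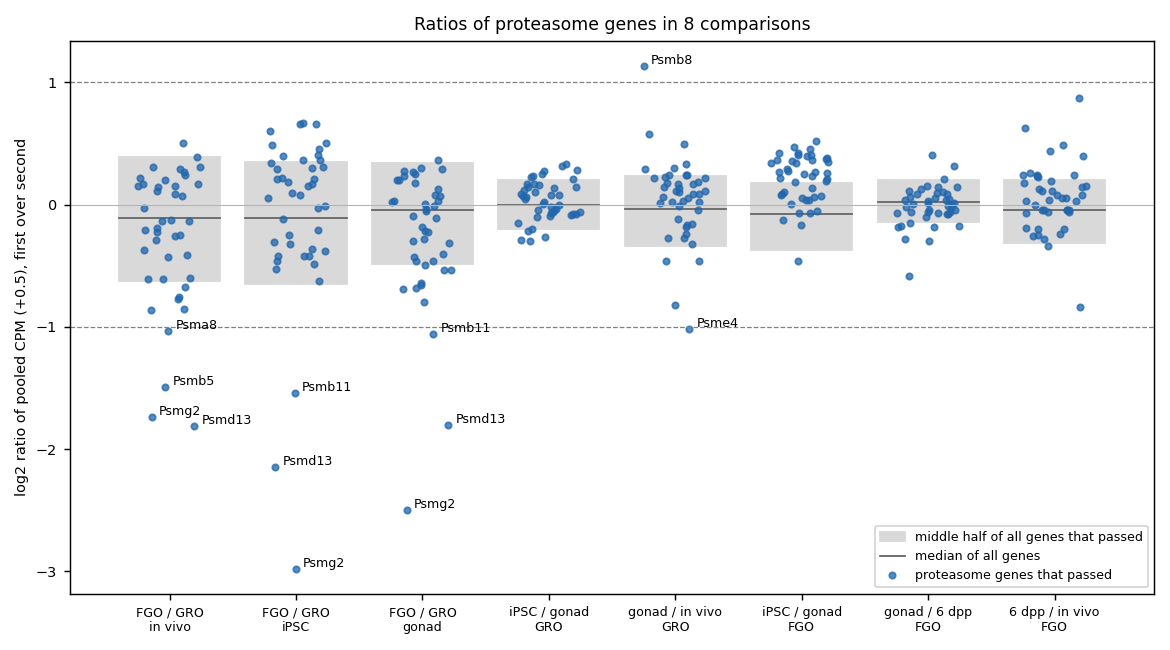
Log2 ratio of pooled CPM plus 0.5 for each member that passed in each of the 8 comparisons, with the range between quartiles and the median of all genes that passed in grey and dashed lines at 2-fold. Lower ratios of Psmd13 and Psmg2 recur in the 3 comparisons of FGOs with GROs, and no member passes 2-fold in the 3 comparisons of FGOs with FGOs.

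By role, the classes differed in the median of their ratios of FGO to GRO. The cap chaperones Psmd5, Psmd9 and Psmd10 were above 0 in all 3 lineages, with medians of 0.39 in vivo, 0.31 in iPSC-derived and 0.13 in gonad-derived oocytes. The alpha ring had medians of 0.15, 0.30 and -0.01, and the ATPases of -0.08, 0.19 and 0.02. The beta ring had -0.23, -0.04 and -0.32, and the non-ATPase cap subunits 0.09, 0.08 and -0.05. The core chaperones had -0.42, -0.16 and -0.52. The other activators had -0.72, 0.02 and -0.12, and the tissue-restricted beta subunits -0.73, -0.32 and -0.66. Without in vivo GROs 17 to 24 the in vivo median was -0.21 for the other activators, with 2 of the 4 above 0, and -0.54 for the tissue-restricted beta subunits. It was then 0.45 for the cap chaperones, 0.18 for the alpha ring, -0.03 for the ATPases, -0.17 for the beta ring, 0.06 for the non-ATPase cap subunits and -0.35 for the core chaperones. These are medians over 2 to 11 genes each, and no class was tested.

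Within the rings single subunits went apart. In the alpha ring Psma2 had the highest ratio in each lineage, at 0.31 in vivo, 0.66 in iPSC-derived and 0.23 in gonad-derived oocytes. In the beta ring Psmb3 had -0.61, -0.42 and -0.80, and Psmb2 had -0.21, -0.30 and -0.46, while Psmb7 was above 0 in all 3. In the ATPase ring Psmc1 had 0.17, 0.36 and 0.01, and Psmc6 had -0.22, -0.36 and -0.28. Among the non-ATPase cap subunits the ubiquitin receptor Psmd4 had 0.22, 0.51 and 0.30. Psmd14, the deubiquitinase of the cap, had 0.09, -0.38 and -0.68, and the scaffold Psmd2 had -0.42, -0.42 and -0.09. Psmd3 had -0.41 in vivo, 0.67 in iPSC-derived and 0.27 in gonad-derived oocytes. Psmc3ip had -0.75, -0.53 and -0.46. All of these lie within 2-fold, and these genes were singled out after their values were seen.

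Psmd13 and Psmg2 were the members below 2-fold in all 3 growth comparisons. Psmd13 (Entrez 23997, chromosome 7, 140882394 to 140898642) encodes a non-ATPase subunit of the cap. Its level in single in vivo GROs was 29.6 CPM at the lowest, 43.4 CPM at the median and 54.7 CPM at the highest, and in in vivo FGOs 1.76, 9.30 and 32.1 CPM. In iPSC-derived oocytes the same values were 30.4, 45.7 and 59.8 CPM in GROs and 4.00, 8.34 and 19.1 CPM in FGOs. Those 2 groups did not overlap, while in vivo only FGO 7, the highest, reached into the GRO range. In gonad-derived oocytes they were 23.5, 38.4 and 54.9 CPM in GROs and 3.16, 8.36 and 26.6 CPM in FGOs, and 23 of the 24 FGOs were below all GROs. The lowest of these FGOs was FGO 19, without which the lowest was 3.69 CPM. The 6 dpp FGOs had 3.71, 9.86 and 16.7 CPM. The pooled ratio was -1.81 in vivo, -2.14 in iPSC-derived and -1.80 in gonad-derived oocytes. Exons of Psmd13 overlap those of Sirt3 on the opposite strand, and Sirt3 was not analysed here.

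Psmg2 encodes one of the chaperones that pair up to build the alpha ring. Its lowest, median and highest levels were 9.75, 16.6 and 33.9 CPM in in vivo GROs and 0.621, 3.83 and 10.9 CPM in in vivo FGOs. They were 11.5, 16.7 and 29.9 CPM in iPSC-derived GROs and 0.294, 1.36 and 9.63 CPM in iPSC-derived FGOs. They were 10.9, 17.0 and 28.7 CPM in gonad-derived GROs and 0.150, 1.92 and 7.39 CPM in gonad-derived FGOs. GROs and FGOs did not overlap in either culture lineage, and in vivo 23 of the 24 GROs were above all FGOs. The pooled ratios were -1.74 in vivo, -2.98 in iPSC-derived and -2.50 in gonad-derived oocytes. Among FGOs the pooled level was 4.95 CPM (95% interval 4.59 to 5.32) in vivo, 2.54 CPM in 6 dpp, 2.63 CPM in gonad-derived and 1.78 CPM (1.58 to 1.99) in iPSC-derived oocytes, and the ranges of the single oocytes overlapped. Its partner Psmg1 had a ratio of 0.26 in vivo, -0.12 in iPSC-derived and -0.41 in gonad-derived oocytes. Psmg3 had -0.60, -0.21 and -0.64, and Psmg4 had -0.25, -0.01 and -0.29.

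Psmb5 (Entrez 19173), the catalytic subunit with chymotrypsin-like activity, was called in vivo. Its lowest, median and highest levels were 37.5, 51.9 and 66.0 CPM in in vivo GROs and 10.6, 15.8 and 35.8 CPM in in vivo FGOs, without overlap, and the highest FGO was again FGO 7. The pooled levels were 51.6 and 18.1 CPM, a ratio of -1.49. In iPSC-derived oocytes Psmb5 had 37.6 CPM in GROs and 24.1 CPM in FGOs (-0.63), and in gonad-derived oocytes 37.5 and 23.0 CPM (-0.69). The in vivo GROs were thus higher and the in vivo FGOs lower than the cultured oocytes of the same stage, with overlapping ranges. The other catalytic subunits of the core differed from it: Psmb6 had ratios of -0.26 in vivo, 0.22 in iPSC-derived and -0.19 in gonad-derived oocytes, and Psmb7 had 0.24, 0.66 and 0.20. Psmb11 had 12.1 CPM in iPSC-derived GROs and 3.85 CPM in FGOs (-1.54), and 9.64 and 4.37 CPM in gonad-derived oocytes (-1.06). The single iPSC-derived oocytes ran from 6.74 to 18.0 CPM in GROs and from 1.00 to 7.27 CPM in FGOs, and the gonad-derived ones from 4.46 to 14.5 CPM and from 0 to 7.66 CPM. The 0 was that of gonad-derived FGO 19, and the other gonad-derived FGOs had 1.935 CPM or more. In vivo Psmb11 had 8.54 and 4.51 CPM (-0.85). Psma8 had 0.958 CPM in in vivo GROs and 0.214 CPM in in vivo FGOs (-1.03), and 2 of 24 GROs and 7 of 20 FGOs had no read of it.

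**Figure D3:**
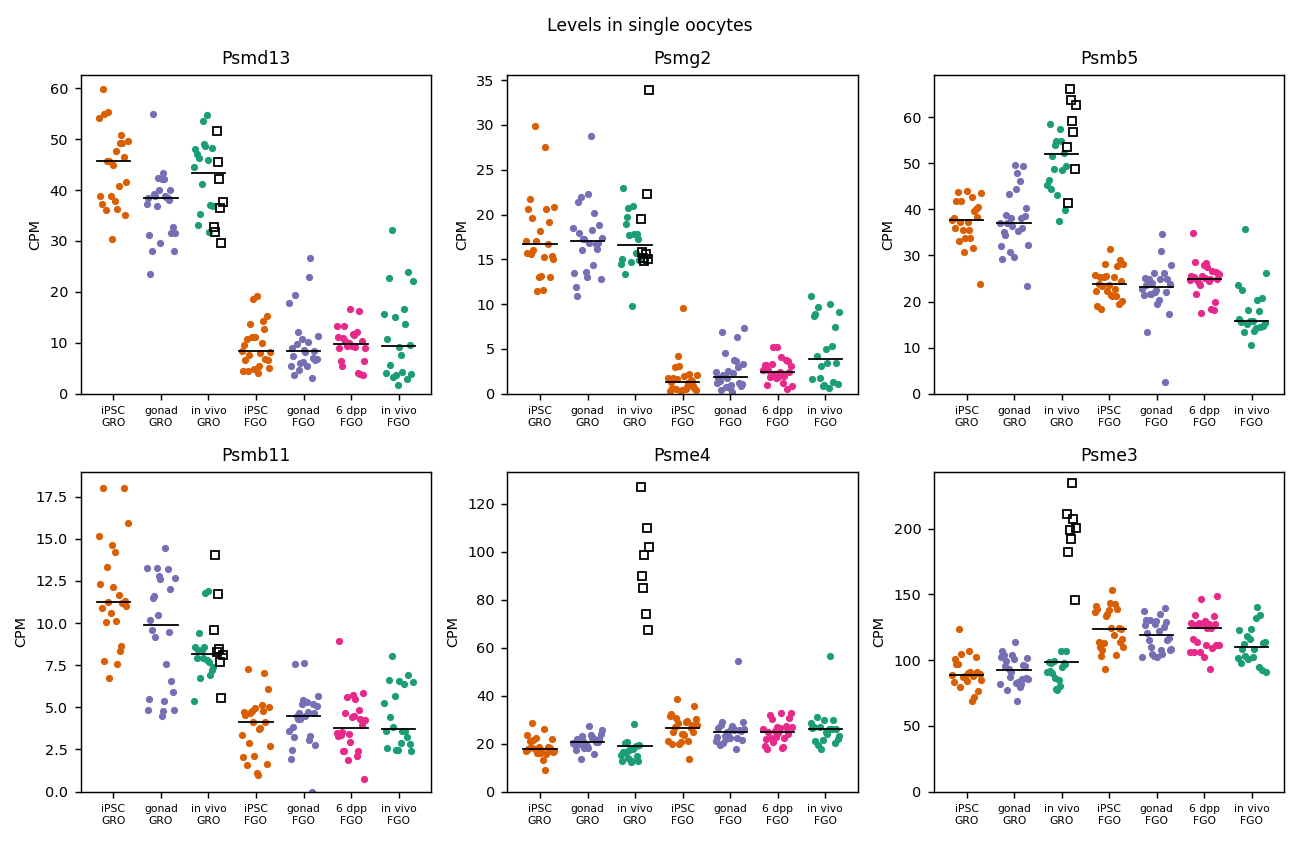
CPM of 6 members in each single oocyte of the 7 groups, with a line at the median and open squares for in vivo GROs 17 to 24. Psmd13, Psmg2 and Psmb5 are lower in FGOs, and Psme4 and Psme3 are higher in in vivo GROs 17 to 24 than in the other in vivo GROs.

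A few members had GRO and FGO ranges that were apart and were higher in FGOs, all at less than 2-fold. In vivo this was Psmd5, a cap chaperone, with 190 to 288 CPM in GROs and 302 to 399 CPM in FGOs (1 member higher, where 2.26% of all genes were, and 1 lower, Psmb5, where 1.19% were). Without in vivo GROs 17 to 24, Psmd9 was also apart and higher. The share of all genes apart is not given for that setting, so nothing is read from this about the members. In iPSC-derived oocytes Psmb7, Psmd9 and Psmd12 were higher (2.39% of all genes) and Psmd13 and Psmg2 lower (5.62%). Psmb7 ran from 190 to 279 CPM in GROs and from 286 to 523 CPM in FGOs, and Nek6, whose exons overlap it on the opposite strand, had at most 5.99 CPM. Psmd12, a cap subunit, ran from 253 to 302 CPM and from 325 to 502 CPM, and Psmd9, a cap chaperone, from 151 to 248 CPM and from 253 to 358 CPM. In gonad-derived oocytes no member was higher (1.36%), and Psmg2 and the cap subunit Psmd6 were lower (2.62%). Psmd6 ran from 248 to 348 CPM in GROs and from 38.5 to 235 CPM in FGOs, and the lowest was FGO 19. Leaving FGO 19 out left these counts at 0 and 2. The shares of all genes given here include FGO 19, which was lowest or highest of its group for 51.6% of all genes. No share without it is given. In vivo FGO 7 was below the other in vivo FGOs for Psmd1 and Psmd12, and above them for 8 members, Psmd13 and Psmb5 among them. Without it, the in vivo ranges of Psmd13 did not overlap, and the share of all genes apart is not given for that setting.

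The activators Psme4 and Psme3 were among the genes that set in vivo GROs 17 to 24 apart. Psme4 (Entrez 103554, chromosome 11, 30771775 to 30881150) encodes the large activator known for its binding to acetylated histones in spermatogenic cells, and Psme3 a nuclear activator that works without ATP. In in vivo GROs 1 to 16, Psme4 was at 12.3 CPM at the lowest, 16.3 CPM at the median and 28.1 CPM at the highest, and in in vivo GROs 17 to 24 at 67.4, 94.4 and 127 CPM. The iPSC-derived GROs ran from 8.94 to 28.7 CPM and the gonad-derived GROs from 13.7 to 27.2 CPM, so that GROs 17 to 24 were above all other GROs. Among FGOs the highest were gonad-derived FGO 19 with 54.5 CPM and in vivo FGO 16 with 56.6 CPM. Psme3 ran from 77.7 to 107 CPM in GROs 1 to 16 and from 146 to 235 CPM in GROs 17 to 24. Psmd1, the large scaffold of the cap, was lower in GROs 17 to 24, at 159 to 219 CPM against 224 to 311 CPM. These 3 were the members whose ranges were apart, 7.14% of the 42 measured, where 6.73% of all genes were apart, so the share of members was near that of all genes. The direction of Psme4 with growth rested on these 8 oocytes. Its in vivo ratio of FGO to GRO was -0.68 with all oocytes and 0.63 without them, and that of Psme3 was -0.19 and 0.26. In iPSC-derived oocytes the ratios were 0.49 for Psme4 and 0.45 for Psme3, and in gonad-derived oocytes 0.29 and 0.37. Psme2, a subunit of the interferon-inducible activator, and its close copy Psme2b had ratios of -0.86 and -0.77 in vivo, and their reads may be split between them.

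For IVD in GROs, the gonad-derived GROs had 1 member above the in vivo GROs by 2-fold or more (4.30% of all genes) and 1 below (2.75%). The lower one was Psme4, at 20.7 against 42.3 CPM, a ratio of -1.02. Without in vivo GROs 17 to 24 this ratio was 0.29, and the counts were 1 higher (4.65%) and 0 lower (1.47%). The higher one was Psmb8, at 1.33 CPM (95% interval 1.16 to 1.52) against 0.334 CPM (0.251 to 0.435), a ratio of 1.13. These came from 209 and 54 reads, 8 of the 24 in vivo GROs had no read, and the single oocytes overlapped. Psmb8 passed the minimum here through the gonad-derived GROs. Its highest level in an in vivo GRO was 1.08 CPM, and it did not pass in the in vivo comparison of FGOs with GROs. Of the 5 blood markers, the class II gene H2-Aa was also higher in gonad-derived GROs, at 38.5 against 2.59 CPM, while Ptprc, Lyz2, Cd74 and Hbb-bs were at or below 0.0191 CPM in both. The part of other cells in the Psmb8 level was not tested. The members' median ratio was 0.09 (all genes, -0.04), or 0.15 (-0.01) without in vivo GROs 17 to 24, and Psmg1 was at 137 against 91.4 CPM (0.58). The different oocyte size of these groups was not taken into account.

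For IVP, no member passed 2-fold in either stage. The lineages also differ in how the ovaries were aggregated and, for FGOs, in the length of growth culture, which cannot be told apart from the origin of the germ cells. The iPSC-derived oocytes come from a single cell line, so its genetic background cannot be told apart from that origin either. In GROs 2.03% of all genes were at least 2-fold higher and 1.80% lower in iPSC-derived than in gonad-derived oocytes, and all 43 members stayed within 1.5-fold, as did 87.1% of all genes, with a median ratio of 0.04 (all genes, -0.004). In FGOs, 2.30% of all genes were higher and 3.90% lower. All 43 members again stayed within 1.5-fold, where 80.1% of all genes did, but 37 of the 43 had a ratio above 0, where 41.9% of all genes did, and their median was 0.25 against -0.08 for all genes. The highest ratios were those of Psmb3 (0.52, 28.7 against 19.8 CPM), Psma7 (0.47, 1323 against 955 CPM) and Psmd7 (0.45). Psmb6 and Psmb7 had 0.40 and 0.42, and Psmg2 had the lowest at -0.46. Psma7 ran from 1060 to 1647 CPM in iPSC-derived and from 756 to 1300 CPM in gonad-derived FGOs. The 1300 CPM was that of gonad-derived FGO 19, without which the gonad-derived range ended at 1146 CPM. By role, the median ratio was 0.37 for the beta ring, 0.29 for the alpha ring, 0.26 for the ATPases, the non-ATPase cap subunits and the cap chaperones alike, 0.23 for the other activators and 0.05 for the core chaperones. Of the 6 members below 0, Psmd2 had -0.13, Psmd5 -0.05, Psmd6 -0.07, Psmd13 -0.07 and Psmb11 -0.16, beside Psmg2. Without gonad-derived FGO 19 the members' median was 0.21.

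The summed level of the 27 core and cap subunits showed the same difference oocyte by oocyte. In iPSC-derived FGOs the sum was 6909 CPM at the lowest, 7786 CPM at the median and 9194 CPM at the highest, and in gonad-derived FGOs 4286, 6389 and 6928 CPM. Of the 24 iPSC-derived FGOs, 23 were above all gonad-derived FGOs, and the lowest gonad-derived value was that of FGO 19. The pooled sum was 7858 against 6334 CPM, 24.1% higher, and 22.3% higher without gonad-derived FGO 19. It was 6393 CPM in 6 dpp and 6088 CPM in in vivo FGOs. Among GROs it was 6789 CPM for the iPSC lineage, 6492 CPM for the gonad lineage and 5990 CPM in vivo. From GRO to FGO the sum was 15.8% higher in iPSC-derived oocytes, where all 24 FGOs were above the median of the GROs, and differed by -2.44% in gonad-derived (-1.02% without gonad-derived FGO 19) and by 1.64% in in vivo oocytes (3.78% without in vivo GROs 17 to 24), where ranges overlapped widely. The core and the cap contributed unequally: in iPSC-derived against gonad-derived FGOs the 12 core subunits summed to 4576 against 3510 CPM, and the 15 cap subunits to 3282 against 2824 CPM. In the same FGOs the 12 oocyte markers summed to 22563 against 26843 CPM, and the part of this in the proteasome levels was not tested. CPM is a share of the reads, so more transcript per oocyte and less of other transcripts cannot be told apart from these values. ERCC spike-in RNA was added to each oocyte, and its counts were not analysed here.

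**Figure D4:**
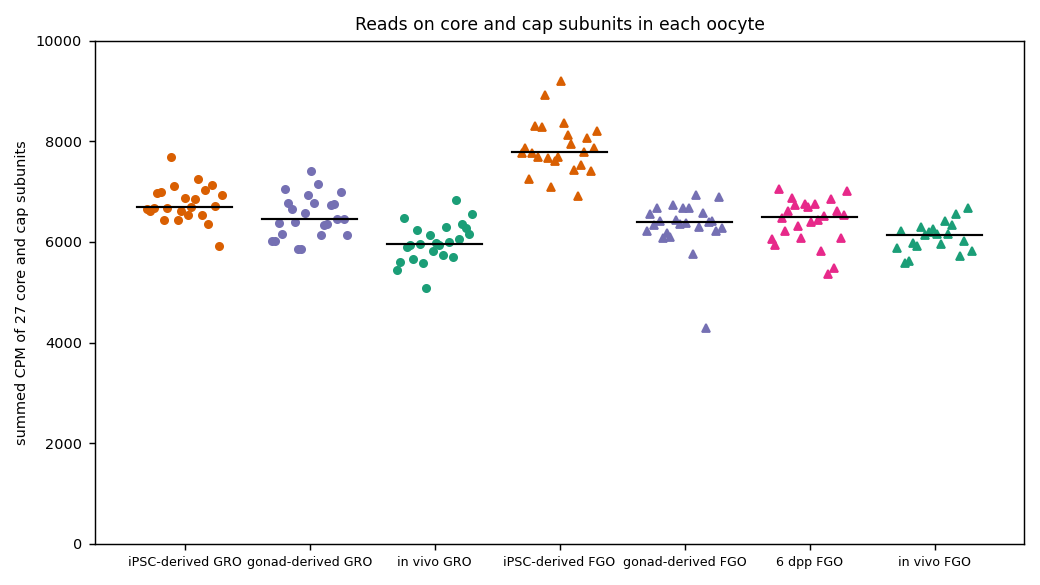
Summed CPM of 27 core and cap subunits in each oocyte, by group, with a line at the median. The iPSC-derived FGOs lie between 6909 and 9194 CPM, and 23 of the 24 are above all gonad-derived FGOs.

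For IVD in FGOs, gonad-derived and 6 dpp oocytes had no member past 2-fold (all genes, 1.64% higher and 0.948% lower), and the members' median ratio was 0.00. The lowest ratio was that of Psma8 (-0.58, at 0.370 against 0.803 CPM) and the highest that of Psmc3ip (0.40), which overlaps exons of Mlx at 107 to 205 CPM. For IVG, 6 dpp and in vivo FGOs also had no member past 2-fold (1.25% higher and 3.12% lower), with a median of 0.05. The highest ratio was that of Psma8 (0.87, at 0.803 against 0.214 CPM). Psmd3, a lid subunit of the cap, was at 82.5 CPM in 6 dpp and 53.4 CPM in in vivo FGOs (0.62). Its single oocytes ran from 44.5 to 135 CPM and from 22.5 to 119 CPM, so the ranges overlapped. Psmb5 had a ratio of 0.44 and Psmg2 of -0.84, with overlapping ranges for both. Psme4 had -0.06 and Psme3 0.13.

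At the median, members at 20 CPM or more varied less between the oocytes of a group than all genes at 20 CPM or more. The members and all genes were not matched for level beyond this. Among members at 20 CPM or more, the median coefficient of variation lay between 9.32% in in vivo FGOs and 19.5% in gonad-derived FGOs, and among all genes of that level between 15.6% and 22.0%. Without gonad-derived FGO 19 the gonad-derived FGOs had 10.1% (all genes, 16.8%). The lowest in each of the GRO groups was Psmd12, at 5.14 to 6.16%. The highest were Psme4 in in vivo GROs (91.2%, where Psmd3 was highest at 35.3% without GROs 17 to 24) and Psmd3 in 5 of the 7 groups. Psmd3 ran from 24.6 to 125 CPM in iPSC-derived GROs and from 36.1 to 124 CPM in in vivo GROs. Its exons overlap those of a transcript on the opposite strand.

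Of 35 other genes of the ubiquitin and proteasome pathway, 31 were in the table and passed in all 8 comparisons. In vivo, 1 was at least 2-fold higher in FGOs than in GROs: Psmf1, an inhibitor of the core, at 621 against 294 CPM (1.08). In iPSC-derived oocytes Nfya, a subunit of NF-Y, was higher (128 against 42.3 CPM, 1.58), and the stress-response factor Nfe2l2 (13.7 against 30.4 CPM, -1.12) was among the lower ones. In gonad-derived oocytes Nfya was also higher (88.1 against 39.1 CPM, 1.16) and Nfe2l2 lower (16.8 against 36.4 CPM, -1.09). Nfe2l2 went the other way in vivo, at 46.1 CPM in FGOs and 25.8 CPM in GROs (0.82). Nfe2l1, the factor that drives proteasome genes when proteasome activity falls, had ratios of -0.64 in vivo, 0.42 in iPSC-derived and 0.33 in gonad-derived oocytes. Of the culture comparisons, gonad-derived against in vivo GROs had 1 lower, Ubqln2, which carries ubiquitinated proteins to the proteasome (at 12.6 against 26.8 CPM, -1.06), and 6 dpp against in vivo FGOs had 1 higher, Zfand5, an activator of the proteasome (139 against 66.8 CPM, 1.06). The Ubqln2 ratio was 0.04 without in vivo GROs 17 to 24, which had a pooled 56.0 CPM against 12.3 CPM in GROs 1 to 16. Without them the in vivo ratios of FGO to GRO were 1.03 for Psmf1, 0.77 for Nfe2l2 and -0.45 for Nfe2l1. The share of all genes past 2-fold upward from GRO to FGO was 10.4% for the in vivo, 6.69% for the iPSC and 5.82% for the gonad lineage, and 9.98% were lower in gonad-derived FGOs. Of the culture comparisons, 2.75% were lower in gonad-derived against in vivo GROs and 1.25% higher in 6 dpp against in vivo FGOs. Counts of lower pathway genes from GRO to FGO are given for the gonad lineage only, and with 1 gene of 31 in each count that is given, nothing is read from them about the list. The maturation factor of the core, Pomp, lay between 54.4 and 81.4 CPM in all groups.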

How the data were processed

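Single oocytes were lysed and amplified with oligo-dT primers (Smart-seq2). The authors, per the labels and the methods of the study, aligned reads with STAR to GRCm38/mm10 and deposited raw counts per gene of uniquely mapped reads over exons of 1 randomly chosen transcript. The other value the authors deposited is the length of those exons. Strand use is not given in the sources used here. Entrez numbers were matched to RefSeq symbols (21907 of 21950), and positions to GENCODE annotation of GRCm38. The 44 members and all gene lists were chosen with earlier results of these data known. From the counts, pooled CPM, RPKM (CPM per kilobase), ratios with a pseudocount of 0.5 CPM and exact Poisson intervals were computed for all genes with Python 3.11.15 and scipy 1.17.1. The ratio calculation was tested on simulated oocytes with 4-fold changes and no effect of animal or culture. The median ratio was taken off there but not in the ratios given here, so smaller ratios as given here were not tested. A gene entered a comparison at over 1 CPM in at least 3 oocytes of its groups. Named are members past 2-fold with 5 CPM in the higher group, the catalytic subunits, Psma7, Psma8, Psme and Psmg genes, and the highest and lowest RPKM of each role class in in vivo FGOs; others were singled out after their values were seen. Pathway genes are named past 2-fold with 5 CPM, except Pomp and Nfe2l1, chosen later. Alternatives were edgeR 4.0.16 TMM scaling, the mean of log2 values over oocytes, other pseudocounts, filters and folds, and leaving out oocytes. One gene of the pathway list is not reported here.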

Additional observations from a re-analysis of the deposited data

How the results depend on the processing

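The ratios of the members past 2-fold at 5 CPM or more kept their sign under each alternative run on them except that of Psme4 in gonad-derived against in vivo GROs, which was -1.02 with all oocytes and 0.29 without in vivo GROs 17 to 24, an alternative chosen after seeing the data. It also turned the in vivo ratios of FGO to GRO of Psme4 (-0.68 to 0.63) and Psme3 (-0.19 to 0.26). Leaving out these 8 oocytes took the lower count there from 1 to 0, and leaving out any 1 of them, or gonad-derived GRO 7, also gave 0, so single left-out oocytes gave 0 to 1. That lower count was also 0 with the mean of log2 values, with a pseudocount of 2 and at 4-fold. At 1.5-fold it was 2 (all genes, 1664 of 13059). The higher count there was 0 with a pseudocount of 2, with 5 CPM in both groups and at 4-fold. The lower counts of FGO against GRO were 2 in vivo, 1 in iPSC-derived and 1 in gonad-derived oocytes with 5 CPM in both groups, since Psmg2 was under 5 CPM in the FGOs of all 3 lineages, as were Psma8 in vivo and Psmb11 in both culture lineages. At 1.5-fold they were 12 in vivo (all genes, 3496 of 13148) and 8 in gonad-derived oocytes (2746 of 13068). The higher count at 1.5-fold was 4 in iPSC-derived oocytes (1996 of 13115). At 4-fold the lower counts were 0 in vivo and 1 in gonad-derived oocytes. For 6 dpp against in vivo FGOs, the higher count was 1 with a pseudocount of 0.1. At 1.5-fold the higher count was 2 (all genes, 686 of 12932) and the lower count 1 (1454 of 12932). For the other filters, pseudocounts and folds no share of all genes is given, so nothing is read from those counts about the members. Over the alternatives other than single left-out oocytes, the members' median of FGO against GRO ran from -0.17 to -0.06 in vivo, the latter without in vivo GROs 17 to 24, from 0.08 to 0.18 in iPSC-derived and from -0.19 to -0.03 in gonad-derived oocytes. It ran from 0.04 to 0.05 and 0.24 to 0.30 for IVP in GROs and FGOs, from 0.08 to 0.15 and -0.05 to 0.00 for IVD, and from 0.05 to 0.06 for IVG. TMM scaling moved the median of all genes by at most 0.07. No paired analysis was possible because the numbers only name oocytes. Members under about 1 CPM (Psma8, Psmb8, Psmb9) rest on few reads per oocyte, and with 1 sample per group the spread between animals and cultures is unknown.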
